A study of Homo sapiens with 14 samples.

Results

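The 9 genes described here encode cell-surface receptors of the neural crest lineage: the neurotrophin receptors NTRK2, NTRK3 and NGFR, the GDNF-family receptor RET with its co-receptors GFRA1, GFRA2 and GFRA3, the receptor tyrosine kinase ALK, and the neuregulin receptor ERBB3. They were taken by gene symbol, and all 9 were found among the 19923 genes of the count tables. Their mRNA was read in SK-N-BE2 cells, an established human neuroblastoma line with amplified MYCN, from 14 RNA-seq libraries that formed 7 groups of 2 replicates in 2 batches. Batch 1 held genotypically WT cells given H2O, 10 µM CoCl2 or 50 µM CoCl2, with no exposure time in the labels. CoCl2, cobalt chloride, is used in the laboratory to mimic hypoxia, since it stabilises hypoxia-inducible factors. Batch 2 held untreated WT cells and untreated cells labelled TET2 KO number 1, 2 and 3, and the labels do not say how these were made or whether each is a clone. TET2 encodes an enzyme that oxidises methylated cytosine in DNA, mostly at CpG dinucleotides.

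Neuroblastoma arises from sympathoadrenal precursors, in which these receptors take part in survival, migration and differentiation. The neurotrophins, among them BDNF, NT-3 and NT-4, bind TRK kinases such as NTRK2 and NTRK3 and, with lower selectivity, the death-domain receptor NGFR (p75NTR). RET signals only after a GDNF-family ligand has bound a GFRA co-receptor anchored in the membrane. The preferred pairs are GDNF with GFRA1, neurturin with GFRA2 and artemin with GFRA3. ALK, a driver of part of neuroblastomas when mutated or amplified, is activated by the ALKAL ligands. ERBB3 binds neuregulins, has little kinase activity of its own, and signals in pairs with other ERBB receptors.

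Promoter sequence was available in the RefSeq tables (GRCh38.p14) for 6 of the 9 genes, as 14 windows of the 250 bases upstream of an annotated start. 3 of them are shown, each ending at or near the start of the gene, for RET, for ALK, and for NTRK3. Per kilobase of exon RET had the highest and NTRK3 the lowest level of the 9 in the H2O and WT controls. Each is written 5′ to 3′ on the strand of the gene, with every CpG, the context in which TET2 acts, in capitals.
RET, chr10:43076819-43077068, plus strand: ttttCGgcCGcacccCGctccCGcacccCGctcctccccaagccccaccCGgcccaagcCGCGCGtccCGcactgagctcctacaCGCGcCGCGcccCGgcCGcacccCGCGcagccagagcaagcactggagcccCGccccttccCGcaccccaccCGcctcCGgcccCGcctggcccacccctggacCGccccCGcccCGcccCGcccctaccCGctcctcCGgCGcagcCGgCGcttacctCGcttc
ALK, chr2:29921587-29921836, minus strand: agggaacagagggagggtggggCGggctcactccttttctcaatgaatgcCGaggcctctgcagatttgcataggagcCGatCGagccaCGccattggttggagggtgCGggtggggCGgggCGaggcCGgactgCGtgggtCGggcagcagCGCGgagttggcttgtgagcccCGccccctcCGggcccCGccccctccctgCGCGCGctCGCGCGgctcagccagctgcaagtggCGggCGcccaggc
NTRK3, chr15:88256740-88256989, minus strand: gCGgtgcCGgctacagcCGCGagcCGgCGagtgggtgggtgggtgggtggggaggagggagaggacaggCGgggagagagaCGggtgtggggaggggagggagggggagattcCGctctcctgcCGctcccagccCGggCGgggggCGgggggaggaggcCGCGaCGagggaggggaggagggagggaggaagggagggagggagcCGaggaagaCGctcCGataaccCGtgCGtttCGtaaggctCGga
The RET window held 33 CpG, the ALK window 24 and the NTRK3 window 23, against a median of 11 over 35116 promoter windows of the same length. The 14 windows ranged from 2 to 33 CpG. The motif ACGTG, read on either strand, which is the core of the element bound by hypoxia-inducible factors, was found in 3 of the 14 windows (2 of NTRK2 and 1 at an internal start of ALK) and in 18.5% of all windows. It was not among the letters of the 3 windows printed. DNA methylation was not analysed here.

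Library totals ranged from 31214128 to 39540111 counts (batch 1) and from 52095024 to 59263320 counts (batch 2, in which a count was mostly 1 read of a pair). TET2 mRNA, the check of the knockout label, was at 70.8 and 64.8 CPM (counts scaled to a library total of 1000000) in the WT libraries, and at 80.4 and 76.6, 87.4 and 91.1, and 68.2 and 75.4 CPM in knockouts 1, 2 and 3. No labelled knockout therefore had a lower mean TET2 level, and gene counts cannot reveal an edited transcript, so directions given for the labelled knockouts rest on the labels. Of 14 markers of adrenergic neuroblastoma, 13 were above 1 CPM in each group. CPM here use library totals scaled with edgeR's TMM method. Differences were tested by quasi-likelihood in edgeR, adjusted p-values are Benjamini-Hochberg values over all genes tested in a batch, a gene was called at an adjusted p under 0.05, and SE is the standard error of a log2 fold change. By this test TET2 was called higher in knockout 1 (log2 fold change 0.21, SE 0.05, adjusted p 0.000664) and knockout 2 (0.40, SE 0.05, adjusted p 3.85e-12). It was not called in knockout 3 (0.08, SE 0.05, adjusted p 0.301). Nothing says that the replicates were separate cultures, so the p-values measure the spread between these libraries, which may be technical. In bulk RNA, fewer cells with a transcript and less of it per cell cannot be told apart.

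Levels were first compared between the receptors in the untreated controls, per kilobase (kb) of merged exon. RET stood far above the others, at 57.6 ± 0.862 CPM per kb (SD, n = 2) in H2O and 119 ± 0.0668 in WT, higher than 96.9% and 98.8% of all genes. In H2O the next levels were 5.67 ± 0.168 for NGFR, 2.52 ± 0.0857 for GFRA2, 1.502 ± 0.0638 for ALK, 0.530 ± 0.0235 for GFRA1 and 0.292 ± 0.00273 CPM per kb for ERBB3. GFRA3 (0.102 ± 0.000954), NTRK2 (0.0492 ± 0.00924) and NTRK3 (0.00902 ± 0.00210) were the lowest. GFRA3, with 8 and 8 counts, and NTRK3, with 11 and 8, were near the detection limit, while NTRK2 had 34 and 45 counts. No neighbours in this order overlapped in the H2O libraries. In WT of batch 2 the order was RET, GFRA2 (6.48 ± 0.117), NGFR (5.99 ± 0.264), ALK (2.88 ± 0.130), ERBB3 (1.06 ± 0.0557), GFRA1 (0.651 ± 0.00670), GFRA3 (0.0816 ± 0.0140), NTRK2 (0.0652 ± 0.0215) and NTRK3 (0.0236 ± 0.00509). Only GFRA3 and NTRK2 overlapped there. GFRA2 and NGFR, and GFRA1 and ERBB3, thus stood in opposite orders in the controls of the 2 batches, whose cultures and processing cannot be told apart. Merged exons are longer than any single transcript, most of all for NTRK3 (26750 bases) and NTRK2 (20363 bases), which lowers their values per kb.

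**Figure D1:**
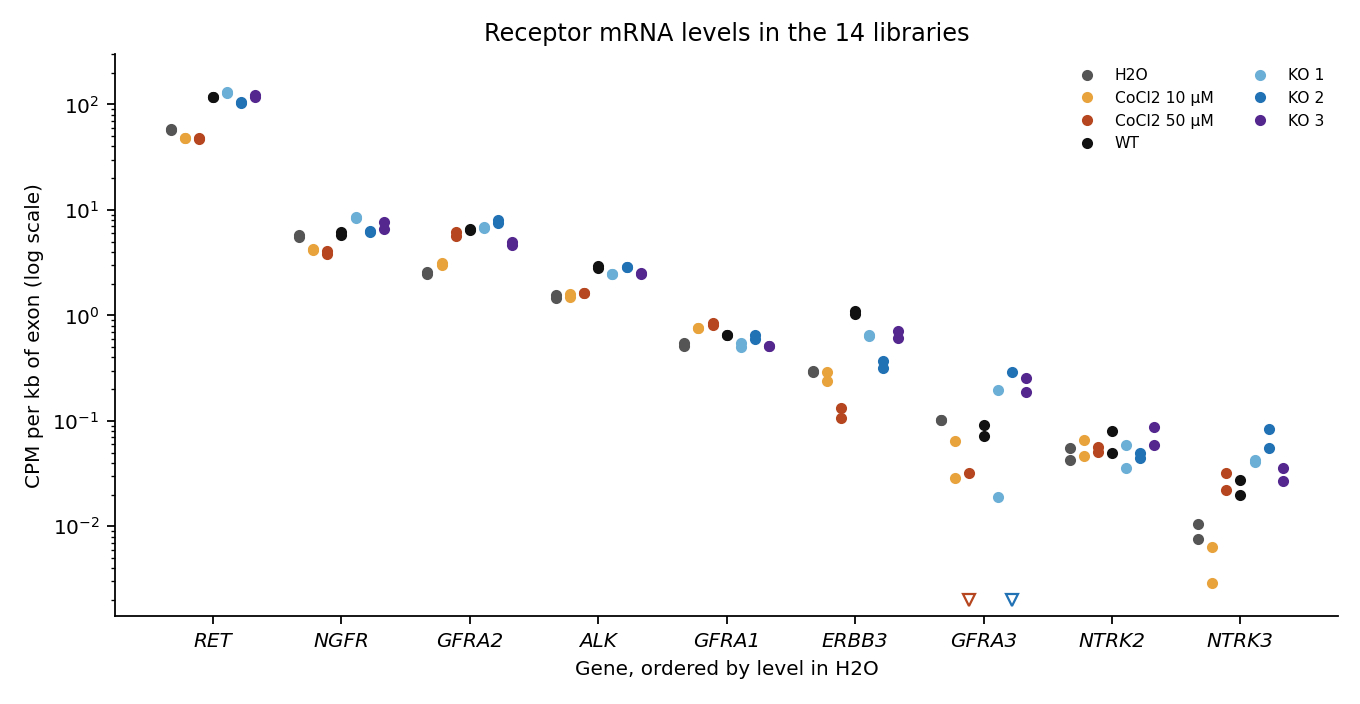
mRNA level of the 9 receptor genes in each of the 14 libraries, in CPM per kb of exon on a log axis, with 1 point per library coloured by group and open triangles at the lower edge for libraries with 0 counts. RET lies above all other receptors in every library, and NTRK3 and NTRK2 are among the lowest.

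CoCl2 moved the RET system in opposite directions: RET mRNA fell by a little at both doses while the co-receptors GFRA1 and GFRA2 rose. Of the 8 receptors tested in batch 1, 4 were called at 10 µM, where 22.7% of all 13636 genes were called, and 6 at 50 µM, where 61.4% were. With that much of the transcriptome called, the counts of receptors say little, and the sizes of the changes are given instead. GFRA3 was below the filter on low counts in batch 1 and was not tested. NTRK3, among the 6 called at 50 µM, passed that filter only through the 50 µM libraries.

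RET, the signalling kinase of the complex (chromosome 10, 43077064 to 43130351, plus strand), was at 400.3 and 392 CPM in H2O, 330.0 and 328 CPM at 10 µM, and 326 and 328 CPM at 50 µM CoCl2. The 4 treated libraries lay together and below both H2O libraries. RET fell by 17.0% at 10 µM (log2 change -0.27, SE 0.02, adjusted p 2.32e-29) and fell by 17.4% at 50 µM (-0.28, SE 0.02, adjusted p 1.48e-31). Tested directly, the doses differed by -0.01 on the log2 scale (SE 0.02, adjusted p 0.734), a difference that was not called.

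GFRA2, the co-receptor preferred by neurturin (chromosome 8, 21690398 to 21812357, minus strand), was at 14.9 and 14.2 CPM in H2O, 18.1 and 17.3 CPM at 10 µM, and 32.9 and 35.3 CPM at 50 µM. The 3 groups did not overlap and stood in the order of dose. GFRA2 rose 1.21-fold at 10 µM (log2 0.28, SE 0.06, adjusted p 0.000203) and 2.35-fold at 50 µM (1.23 on the log2 scale, SE 0.05, adjusted p 1.84e-50), and the higher dose exceeded the lower by 0.95 on the log2 scale (SE 0.05, adjusted p 1.07e-38). GFRA1, the co-receptor for GDNF (chromosome 10, 116056925 to 116273467, minus strand), was at 5.29 and 4.97 CPM in H2O, 7.40 and 7.38 CPM at 10 µM, and 7.91 and 8.28 CPM at 50 µM. Each treated library was above both H2O libraries. GFRA1 rose 1.44-fold at 10 µM (log2 0.53, SE 0.10, adjusted p 9.38e-06) and 1.58-fold at 50 µM (0.66 on the log2 scale, SE 0.10, adjusted p 2.39e-09). Unlike for GFRA2, the doses were not called different for GFRA1 (log2 difference 0.13, SE 0.09, adjusted p 0.229).

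The GFRA2 level per kb relative to GFRA1 was 4.73 and 4.80 in the H2O libraries, 4.10 and 3.92 at 10 µM, and 6.98 and 7.14 at 50 µM. The ratio was thus lowest at the lower dose and highest at the higher dose, with no overlap between groups. GFRA2 amounted to 4.38% ± 0.0832 (SD, n = 2) of the RET level per kb in H2O, 6.40% ± 0.182 at 10 µM and 12.4% ± 0.575 at 50 µM. GFRA1 amounted to 0.919% ± 0.0270, 1.60% ± 0.00399 and 1.76% ± 0.0537 of it. RET mRNA stayed in large excess over all its measured co-receptors in each of these groups.

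GFRA3, the co-receptor for artemin (chromosome 5, 138252380 to 138274621, minus strand), had 8 and 8 counts in H2O, 2 and 5 at 10 µM, and 2 and 0 at 50 µM. The treated libraries were all below the H2O libraries, on very few counts. The summed counts of 2 at 50 µM and 16 in H2O gave a ratio of 0.147 per total count, with a 95% counting interval of 0.0164 to 0.624. A count of 0 in the second 50 µM library allows up to 3 counts, or 0.0841 CPM on its unscaled total. These intervals cover counting error only. Without the filter, GFRA3 was at -2.64 on the log2 scale at 50 µM (SE 0.96, edgeR adjusted p 0.0231), and 7 receptors were then called there.

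Among the neurotrophin receptors, NGFR was lower at both CoCl2 doses and NTRK2 was not called. The scarce NTRK3 transcript was higher in the 50 µM libraries, through which alone it passed the filter on low counts. NGFR (chromosome 17, 49495293 to 49515008, plus strand) was at 23.0 and 24.0 CPM in H2O, 17.4 and 17.8 CPM at 10 µM, and 15.7 and 16.8 CPM at 50 µM. All treated libraries were below the H2O libraries. NGFR fell by 25.1% at 10 µM (log2 -0.42, SE 0.06, adjusted p 3.03e-10) and fell by 30.7% at 50 µM (-0.53, SE 0.06, adjusted p 2.66e-15). The groups at 10 and 50 µM did not overlap, but their difference of -0.11 on the log2 scale was not called (SE 0.06, adjusted p 0.124).

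NTRK3, the kinase receptor of NT-3 (chromosome 15, 87859751 to 88256768, minus strand), had 11 and 8 counts in H2O, 6 and 3 at 10 µM, and 27 and 21 at 50 µM, or 0.281 and 0.202, 0.171 and 0.0772, and 0.864 and 0.588 CPM. The 50 µM libraries were the highest and the 10 µM libraries the lowest, without overlap. NTRK3 rose against H2O at 50 µM (log2 1.56, SE 0.39, adjusted p 0.000293) and against 10 µM (2.53, SE 0.47, adjusted p 1.41e-06), and was not called at 10 µM (-0.97, SE 0.60, adjusted p 0.258). It passed the filter on low counts only through the 50 µM libraries: at the 0.268 CPM required, both of those and 1 H2O library qualified, so that its presence among the tested genes depended on the group in which it was high. The 48 counts at 50 µM and 19 in H2O gave a ratio of 2.96 per total count, with a 95% counting interval of 1.71 to 5.34. NTRK2, the receptor of BDNF (chromosome 9, 84668551 to 85027070, plus strand), was at 0.869 and 1.13 CPM in H2O, 0.940 and 1.34 CPM at 10 µM, and 1.02 and 1.15 CPM at 50 µM. Its groups overlapped, and with 32 to 52 counts per library the log2 fold changes of 0.20 (SE 0.24, adjusted p 0.622) and 0.12 (SE 0.25, adjusted p 0.698) were not called.

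ERBB3 fell at 50 µM and was not called at 10 µM, and ALK was not called at either dose. ERBB3 (chromosome 12, 56076799 to 56103505, plus strand) was at 2.66 and 2.62 CPM in H2O, 2.14 and 2.65 CPM at 10 µM, and 1.18 and 0.951 CPM at 50 µM. The 10 µM libraries overlapped those given H2O, while both 50 µM libraries were well below. ERBB3 fell by 59.8% at 50 µM (log2 -1.31, SE 0.20, adjusted p 2.58e-09) and was lower at 50 than at 10 µM (-1.18, SE 0.21, adjusted p 2.63e-07). At 10 µM it was not called (-0.13, SE 0.16, adjusted p 0.604). Its exons overlap those of AC034102.2 on the same strand, which had 0 counts in every library. ALK (chromosome 2, 29192774 to 29921586, minus strand) was at 10.8 and 11.4 CPM in H2O, 11.7 and 11.1 CPM at 10 µM, and 12.0 and 12.0 CPM at 50 µM. The 50 µM libraries were slightly above the H2O libraries and the 10 µM libraries overlapped them. The log2 fold changes were 0.04 (SE 0.07, adjusted p 0.775) and 0.12 (SE 0.07, adjusted p 0.174).

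Between the doses, 3 of the 8 receptors were called (NTRK3 and GFRA2 higher, ERBB3 lower at 50 µM), where 52.8% of all genes were. RET, NGFR and GFRA1, called at each dose, were not among them. NTRK3 was tested only because its 50 µM libraries passed the filter on low counts. The comparisons with H2O share the same 2 control libraries.

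**Figure D2:**
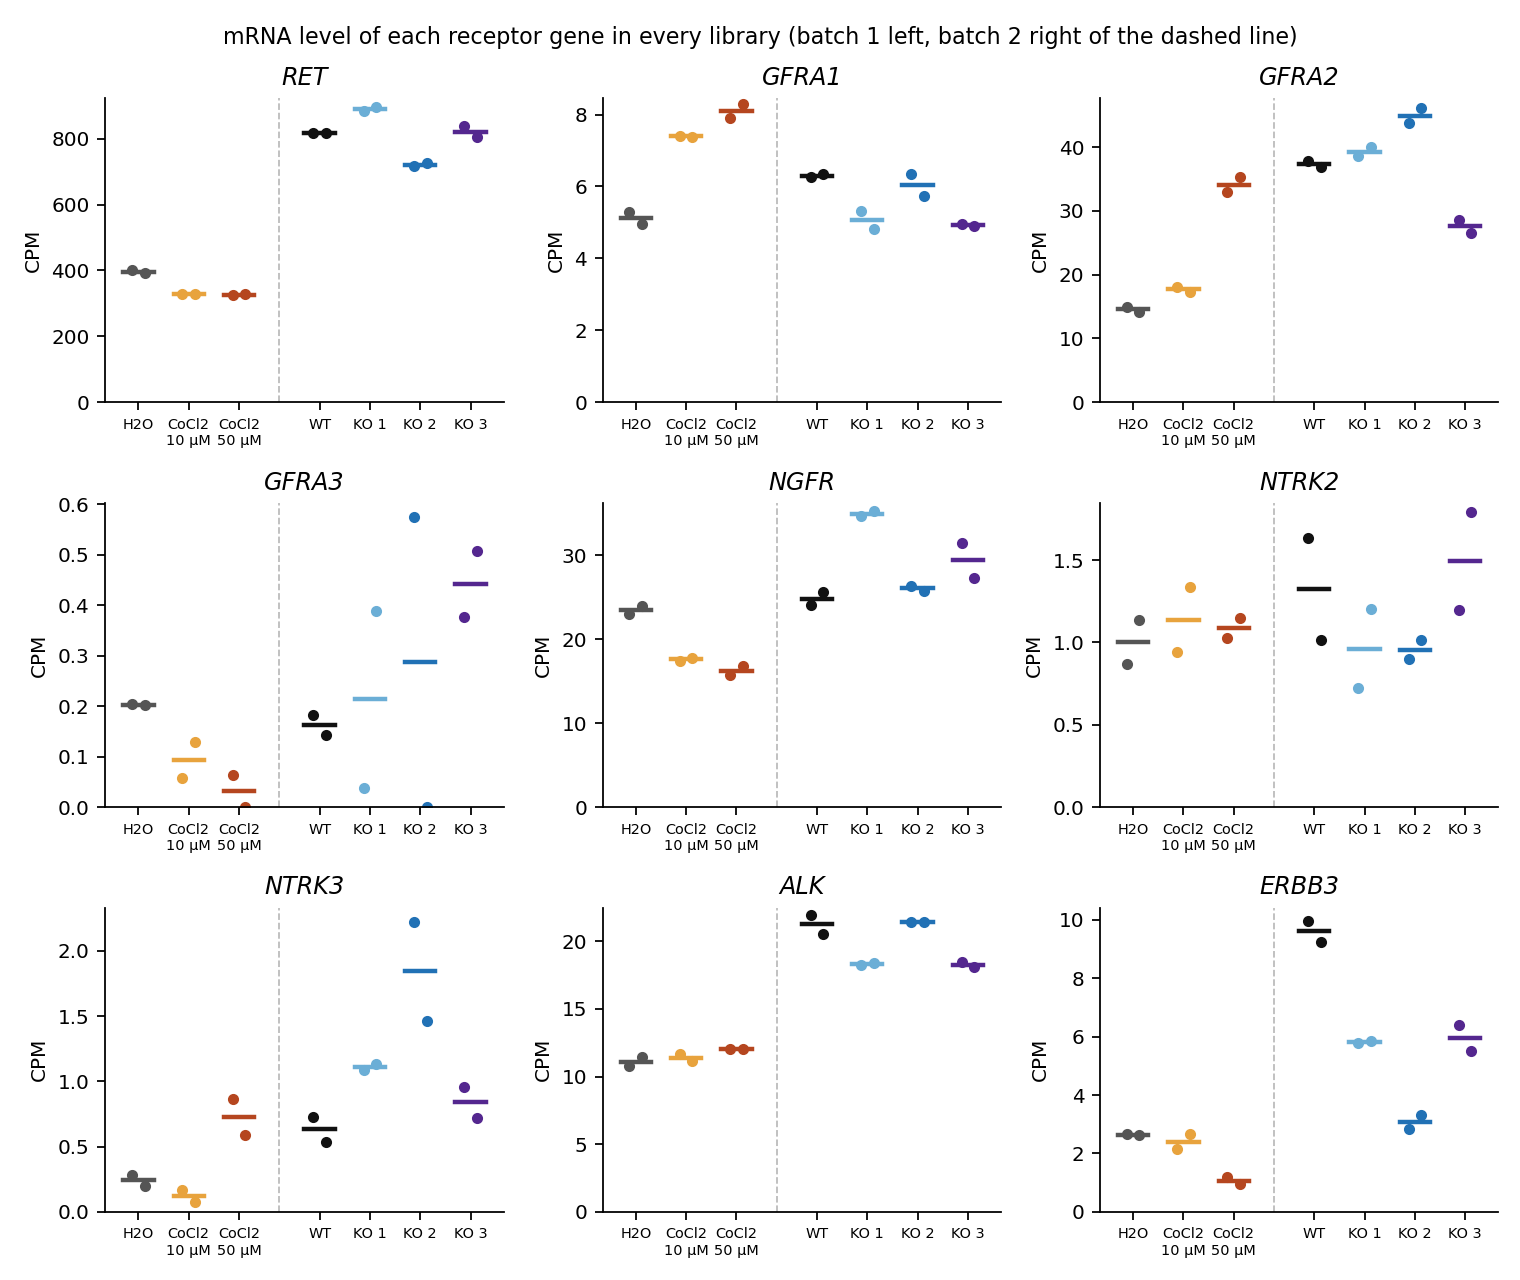
CPM of each receptor gene in every library on linear axes from 0, with points for libraries and bars for group means; the dashed line separates the batches. GFRA2 rises with dose while RET and NGFR are lower at both doses, and ERBB3 is lower in every labelled TET2 knockout library than in WT.

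In batch 2, ERBB3 fell in all 3 labelled knockouts. NTRK3, NGFR, RET and GFRA2 were called in 1 or 2 of them, and NTRK2, GFRA1, GFRA3 and ALK in no comparison of a knockout with WT (by edgeR; alternatives are given beside their values). Of the 9 receptors, 3 were called in knockout 1 (17.5% of all 14061 genes), 4 in knockout 2 (26.3%) and 3 in knockout 3 (18.9%). For the average over the labelled knockouts the number was 3 (18.9%). All 3 knockouts were compared with the same 2 WT libraries.

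ERBB3 was at 9.97 and 9.26 CPM in WT, 5.78 and 5.86 CPM in knockout 1, 2.83 and 3.31 CPM in knockout 2, and 6.41 and 5.52 CPM in knockout 3. All 6 knockout libraries were below both WT libraries, and those of knockout 2 were the lowest. ERBB3 fell by 39.4% in knockout 1 (log2 fold change -0.72, SE 0.13, adjusted p 1.91e-06), it fell by 68.0% in knockout 2 (-1.64, SE 0.15, adjusted p 9.37e-21) and it fell by 37.7% in knockout 3 (-0.68, SE 0.13, adjusted p 5.98e-06). The 3 knockouts differed from each other (edgeR F-test, adjusted p 1.02e-07). In the average of the knockouts ERBB3 fell by 1.02 on the log2 scale (SE 0.11, adjusted p 3.46e-16). When the 6 knockout libraries shared 1 coefficient, so that the spread between knockouts counted as error, the adjusted p was 0.103.

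Markers of other cell types were read beside ERBB3, which Schwann cells and melanocytes also express. Of the 9 Schwann cell and melanocyte-lineage markers in the tables, 6 were below 1 CPM in each of the 7 groups, among them SOX10, MBP and CDH19, and PMP2 and FOXD3 had 0 counts in every group. The summed level of this list, ERBB3 included, was 19.9 to 21.0 CPM in WT and 16.4 to 18.6 CPM over the labelled knockouts, and 14.4 CPM in both H2O libraries and 12.0 to 12.5 CPM with 50 µM. The summed level of the 8 endothelial markers was 36.9 to 37.4 CPM in WT, and 17.3 to 17.5, 20.6 to 21.0 and 19.7 to 19.8 CPM in knockouts 1, 2 and 3, with 6 of 8 called lower in the average, where 11.4% of all genes were. In batch 1 it was 16.6 to 17.4 CPM with H2O and 10.1 to 10.6 CPM with 50 µM. Of these 8 markers, 7 (all but EGFL7) were below 1 CPM in each batch 1 group and in knockouts 1 and 3. The number below 1 CPM was 2 in WT and 5 in knockout 2. The summed level of the 10 mesenchymal markers was 1442 to 1463 CPM in WT and 969 to 1159 CPM in the labelled knockouts (5 of 9 tested called lower in the average). In batch 1 the sum was 1251 to 1255 CPM with H2O and 1605 to 1624 CPM with 50 µM. Of the 7 tested, however, 3 were called higher and 2 lower at 50 µM (30.4% and 31.1% of all genes). Their median log2 fold change was -0.20. COL1A2 and PRRX1 were below 1 CPM in each group. The adrenergic markers summed to 5149 to 5291 CPM in WT and 4949 to 5195 CPM in the knockouts, and blood cell markers to at most 0.112 CPM in any library. The part of these other markers in the fall of ERBB3 was not tested.

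NGFR was at 24.0 and 25.6 CPM in WT, 34.7 and 35.3 CPM in knockout 1, 26.4 and 25.8 CPM in knockout 2, and 31.5 and 27.3 CPM in knockout 3. Every knockout library was above both WT libraries, by the least in knockout 2. NGFR rose 1.41-fold in knockout 1 (log2 fold change 0.50, SE 0.07, adjusted p 1.58e-09) and was called in knockout 3 (0.25, SE 0.07, adjusted p 0.00630) but not in knockout 2 (0.07, SE 0.07, adjusted p 0.524). The call in knockout 3 was lost without WT replicate 1 (adjusted p 0.120) and without knockout 3 replicate 1 (adjusted p 0.380). In the average NGFR rose by 0.27 (SE 0.06, adjusted p 0.000145), with an adjusted p of 0.385 when the knockouts shared 1 coefficient, and the knockouts differed from each other (adjusted p 4.42e-07).

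NTRK3 was at 0.728 and 0.535 CPM in WT (40 and 30 counts), 1.08 and 1.13 CPM in knockout 1, 2.22 and 1.47 CPM in knockout 2, and 0.957 and 0.721 CPM in knockout 3. The libraries of knockouts 1 and 2 were above WT, and those of knockout 3 overlapped it. NTRK3 rose 2.92-fold in knockout 2 (log2 fold change 1.55, SE 0.32, adjusted p 4.30e-05) and was not called in knockout 1 (0.81, SE 0.37, adjusted p 0.120) or knockout 3 (0.42, SE 0.39, adjusted p 0.511). The average of the knockouts was called (0.93, SE 0.30, adjusted p 0.0180). That call was lost without WT replicate 1 (0.0568), WT replicate 2 (0.253), knockout 2 replicate 1 (0.0610) or knockout 3 replicate 1 (0.0596), and with 1 shared coefficient (0.359). The difference among knockouts (adjusted p 0.00323) was also lost without knockout 2 replicate 1 (0.266). NTRK2 was at 1.64 and 1.02 CPM in WT, 0.723 and 1.20 CPM in knockout 1, 0.897 and 1.01 CPM in knockout 2, and 1.20 and 1.79 CPM in knockout 3. Its WT replicates differed by more than its group means did, and no comparison was called.

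RET moved in opposite directions in 2 of the labelled knockouts. Its level was 817 and 817 CPM in WT, 885 and 895 CPM in knockout 1, 717 and 726 CPM in knockout 2, and 838 and 804 CPM in knockout 3. Knockout 1 lay above WT, knockout 2 below it and knockout 3 on both sides. RET rose 1.09-fold in knockout 1 (log2 fold change 0.12, SE 0.03, adjusted p 0.000668) and fell by 11.7% in knockout 2 (-0.18, SE 0.03, adjusted p 1.36e-07), with no call in knockout 3 (0.01, SE 0.03, adjusted p 0.909) or in the average (-0.02, SE 0.02, adjusted p 0.709). The F-test among knockouts gave an adjusted p of 8.90e-18.

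GFRA2 was at 37.9 and 37.0 CPM in WT, 38.6 and 40.0 CPM in knockout 1, 43.7 and 46.1 CPM in knockout 2, and 28.6 and 26.6 CPM in knockout 3. Knockout 2 was above and knockout 3 below all WT libraries, and knockout 1 was just above them. GFRA2 rose 1.20-fold in knockout 2 (log2 fold change 0.26, SE 0.06, adjusted p 0.000292) and fell by 26.2% in knockout 3 (-0.44, SE 0.07, adjusted p 2.22e-08), and was not called in knockout 1 (0.07, SE 0.06, adjusted p 0.503). The knockouts differed from each other (adjusted p 1.03e-19), and the average did not pass the test (-0.03, SE 0.05, adjusted p 0.718). In knockout 2 the directions of RET and GFRA2 were thus opposite, and GFRA2 amounted to 7.41% ± 0.209 of the RET level per kb there, against 5.45% ± 0.0952 in WT, 5.25% ± 0.0904 in knockout 1 and 3.99% ± 0.0864 in knockout 3 (SD, n = 2).

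GFRA1 was at 6.26 and 6.35 CPM in WT, 5.32 and 4.82 CPM in knockout 1, 6.35 and 5.73 CPM in knockout 2, and 4.95 and 4.91 CPM in knockout 3. Knockouts 1 and 3 lay below WT, but their log2 fold changes of -0.32 (SE 0.15, adjusted p 0.129) and -0.35 (SE 0.15, adjusted p 0.0780) were not called. ALK was at 21.9 and 20.6 CPM in WT, 18.3 and 18.4 CPM in knockout 1, 21.4 and 21.4 CPM in knockout 2, and 18.5 and 18.1 CPM in knockout 3. Knockouts 1 and 3 were below both WT libraries and knockout 2 between them. The log2 fold changes of ALK were -0.21 (SE 0.08, adjusted p 0.0604), 0.01 (SE 0.08, adjusted p 0.934) and -0.22 (SE 0.08, adjusted p 0.0512), and none was called. A difference among knockouts was called (adjusted p 0.0224) and was lost without knockout 2 replicate 1 (0.150), knockout 2 replicate 2 (0.137) or knockout 3 replicate 2 (0.0502). With library totals not scaled by TMM, ALK was called lower in knockout 3 (adjusted p 0.0340). In a fit of all 14 libraries, GFRA1 and ALK were called lower in knockouts 1 and 3 (adjusted p 0.0422 and 0.0205 for GFRA1, 0.0164 and 0.0122 for ALK).

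GFRA3 had 10 and 8 counts in WT, 2 and 22 in knockout 1, 32 and 0 in knockout 2, and 22 and 26 in knockout 3. Replicates of knockouts 1 and 2 disagreed by more than any group difference, and only knockout 3 lay wholly above WT. It passed the filter through knockout libraries alone, since neither WT library reached the 0.183 CPM required, and no comparison with WT was called. A count of 0 in the second knockout 2 library allows up to 3 read pairs, or 6 counts where each read of a pair is counted, or 0.111 CPM on its unscaled total. In all, 6 of the 9 receptors differed among the labelled knockouts (NTRK3, NGFR, RET, GFRA2, ALK and ERBB3), where 37.6% of all genes did.

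**Figure D3:**
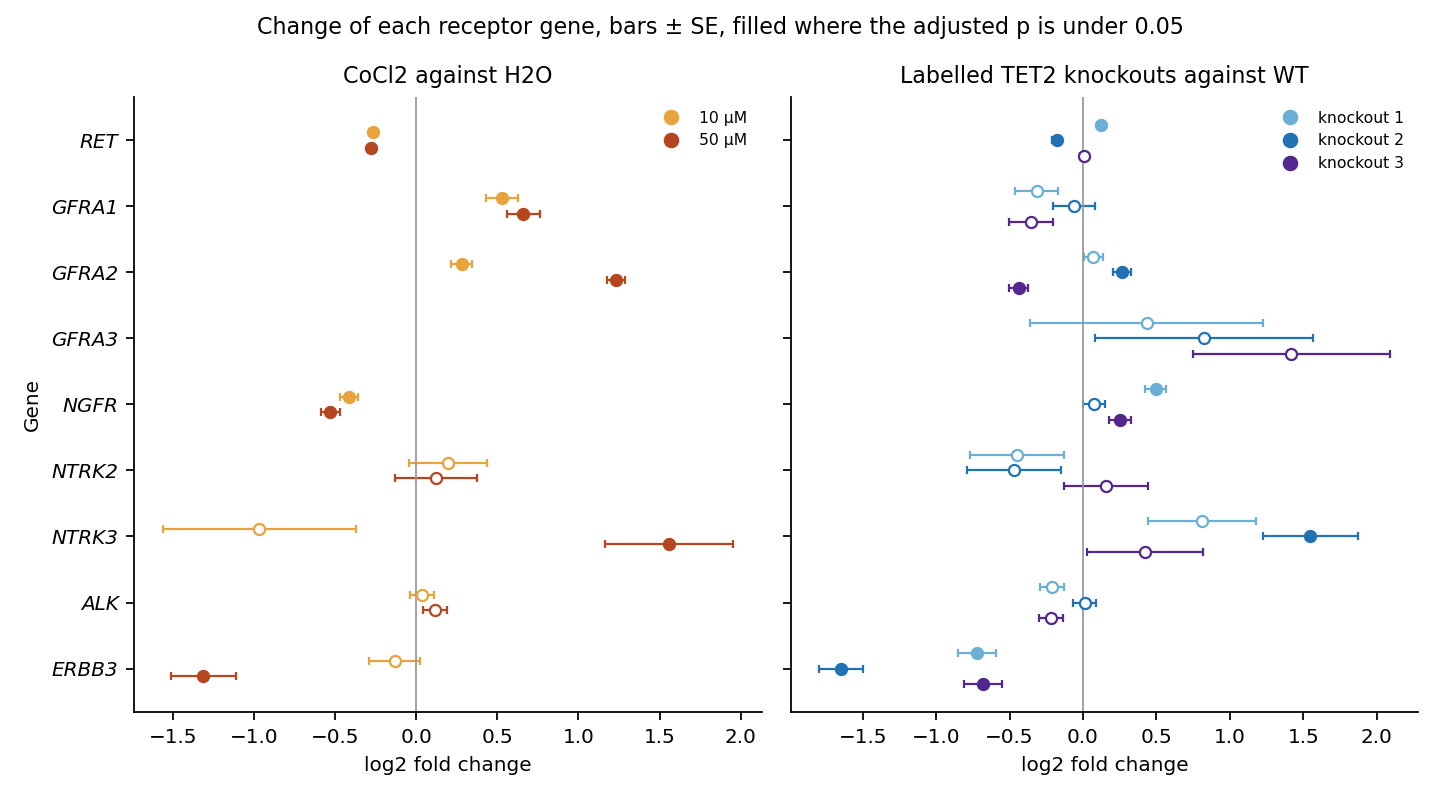
log2 fold change of each receptor against its own control, with bars of ± SE, for 10 and 50 µM CoCl2 (left) and the 3 labelled TET2 knockouts (right); filled points have an adjusted p under 0.05. ERBB3 lies to the left of 0 in all 3 knockouts, while RET and GFRA2 lie on both sides; GFRA3 is not plotted on the left, where it was not tested.

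The ligands and partner receptors were read in the same libraries. BDNF, the ligand of NTRK2, averaged 12.3 ± 0.169 CPM in H2O, 13.6 ± 0.196 CPM at 10 µM and 7.93 ± 0.372 CPM at 50 µM (SD, n = 2). With 50 µM it fell (log2 -0.64, SE 0.08, adjusted p 2.19e-12), and also in knockout 2, from 7.59 ± 0.0422 CPM in WT to 4.23 ± 0.230 CPM (log2 -0.84, SE 0.15, adjusted p 5.29e-07). NTF3 and NTF4 were below 0.3 CPM in each group. SORT1, the sortilin partner of NGFR, fell from 119 ± 1.02 to 97.9 ± 2.87 CPM with 50 µM (log2 -0.28, SE 0.03, adjusted p 1.90e-18).

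The GDNF-family ligands and other receptors gave 3 calls of 6 tested at 50 µM, each higher (61.4% of all genes were called there, 30.4% higher). In the average of the labelled knockouts 1 of 8 was called, lower (11.4% of all genes). GDNF and ARTN were below the filter on low counts in batch 1 and were not tested there. GDNF averaged 0.153 ± 0.0732 CPM in H2O and 0.737 ± 0.168 CPM in WT, and rose in knockout 1 (log2 fold change 0.95, SE 0.33, adjusted p 0.0310). NRTN and ARTN were below 1 CPM in each group and PSPN at 3.16 to 4.99 CPM. NRTN and PSPN were not called against H2O, and none of the 3 was called against WT. PSPN overlaps ALKBH7 on the opposite strand. GFRA4 and GFRAL had 0 counts in every library, while GDF15, the ligand of GFRAL, rose at 50 µM, from 0.355 ± 0.104 to 1.73 ± 0.0377 CPM (log2 2.27, SE 0.28, adjusted p 1.48e-12). NCAM1, an alternative GDNF receptor, rose at 50 µM, from 583 ± 1.05 to 773 ± 4.10 CPM (log2 0.41, SE 0.02, adjusted p 2.98e-58). GAS1, which binds RET in a manner related to the GFRA proteins, fell in all 3 labelled knockouts, from 3.75 ± 0.0622 CPM in WT to 1.96 ± 0.297, 1.77 ± 0.316 and 1.79 ± 0.104 CPM (largest adjusted p 0.000174).

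The ALK ligands and related receptors gave 4 calls of 5 tested at 50 µM, each higher (30.4% of all genes), and 2 of 5 in the average of the labelled knockouts, both lower (11.4%). The ligands ALKAL1 and ALKAL2 stayed below 0.1 CPM in each group. PTN and MDK, heparin-binding factors that have also been described as ALK ligands, were abundant, at 155 ± 0.294 and 19.5 ± 0.410 CPM in H2O. PTN fell at 10 µM (log2 -0.15, SE 0.02, adjusted p 3.41e-07) and rose at 50 µM (0.22, SE 0.02, adjusted p 1.56e-16). PTN and LTK, the closest relative of ALK, both fell in knockouts 1 and 3: LTK went from 10.2 ± 0.0527 CPM in WT down to 5.46 ± 0.753 CPM in knockout 3 (log2 -0.89, SE 0.13, adjusted p 2.73e-09). Among the neuregulins and other ERBB receptors, 4 were higher and 1 lower of 8 at 50 µM, against 30.4% and 31.1% of all genes. In the average of the labelled knockouts 2 of 8 were called, both higher (7.54% of all genes). These 2, NRG1 and EGFR, were called singly in knockout 2 only. Knockout 1 had 0 calls (17.5% of all genes), knockout 2 had 3 higher and 1 lower (26.3%), and knockout 3 had 2 lower (18.9%). NRG1 rose at 50 µM, from 20.1 ± 0.421 to 28.6 ± 0.627 CPM (log2 0.51, SE 0.05, adjusted p 7.29e-17). Of the kinases that can pair with ERBB3, EGFR rose by 0.24 (SE 0.03, adjusted p 6.17e-15) and ERBB2 by 0.64 (SE 0.12, adjusted p 1.04e-06), and ERBB4, at 1.09 ± 0.0461 CPM in H2O, fell by 1.33 (SE 0.31, adjusted p 8.52e-05) on the log2 scale. ERBB2 overlaps MIEN1 and PGAP3 on the opposite strand, and NRG1 overlaps AC083977.1 on the same strand.

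Downstream genes moved in both directions. At 50 µM CoCl2, where 30.4% of all genes were called higher and 31.1% lower, 15 of 42 tested adaptors and kinases were higher and 13 lower, with a median log2 fold change of -0.00057 against 0.0020 for all genes. NRAS, a small GTPase of the ERK cascade, fell from 326 ± 2.72 to 237 ± 0.170 CPM, DOK4, an adaptor that binds RET, rose from 187 ± 1.31 to 255 ± 1.29 CPM, and MAP2K1, the kinase MEK1, rose from 60.5 ± 0.261 to 78.7 ± 0.558 CPM. MAP2K1 overlaps SNAPC5 on the opposite strand. Of 23 feedback and ERK target genes, 7 were higher and 11 lower, with a median of -0.01. EGR1, an immediate early transcription factor, fell from 207 ± 0.698 to 60.2 ± 0.568 CPM (log2 -1.78, SE 0.03, adjusted p 3.00e-116) and ARC from 121 ± 1.18 to 55.6 ± 1.90 CPM. DUSP4, a phosphatase of ERK, rose from 225 ± 0.560 to 367 ± 0.434 CPM.

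In the average of the labelled knockouts, where 7.54% of all genes were called higher and 11.4% lower, 5 of 42 adaptors and kinases were higher and 4 lower, and 4 of 23 ERK targets were higher and 6 lower. Their medians were 0.03 and -0.07, against -0.0018 for all genes. DOK4 rose from 222 ± 3.17 CPM in WT to 341 ± 2.85, 404 ± 8.45 and 249.9 ± 6.88 CPM in knockouts 1, 2 and 3, STAT3 fell from 249 ± 5.58 to 201 ± 4.39, 185 ± 1.16 and 192 ± 2.15 CPM, and GAB2 rose by 0.18 on the log2 scale in the average (SE 0.03, adjusted p 2.01e-07). GAB2 averaged 219 ± 6.39 CPM in WT, and 261 ± 11.9, 225 ± 3.84 and 262 ± 0.619 CPM in knockouts 1, 2 and 3. It was called in knockouts 1 and 3 but not in knockout 2. DOK4 overlaps POLR2C on the opposite strand. PHLDA1 fell from 150.0 ± 3.29 to 96.7 ± 3.87, 95.6 ± 2.01 and 92.3 ± 0.892 CPM. FOS averaged 23.3 ± 0.375 CPM in WT. Its level was 19.3 ± 0.384 CPM in knockout 1, 3.40 ± 0.0966 CPM in knockout 2 and 21.5 ± 0.898 CPM in knockout 3, and the average over the knockouts fell by 1.05 on the log2 scale (SE 0.07, adjusted p 2.16e-30). CCND1, encoding cyclin D1, overlaps LTO1 on the opposite strand. It rose from 569 ± 13.4 to 675 ± 0.0189, 739.8 ± 9.99 and 633 ± 18.1 CPM. These changes were read from mRNA, and receptor activity was not measured.

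**Figure D4:**
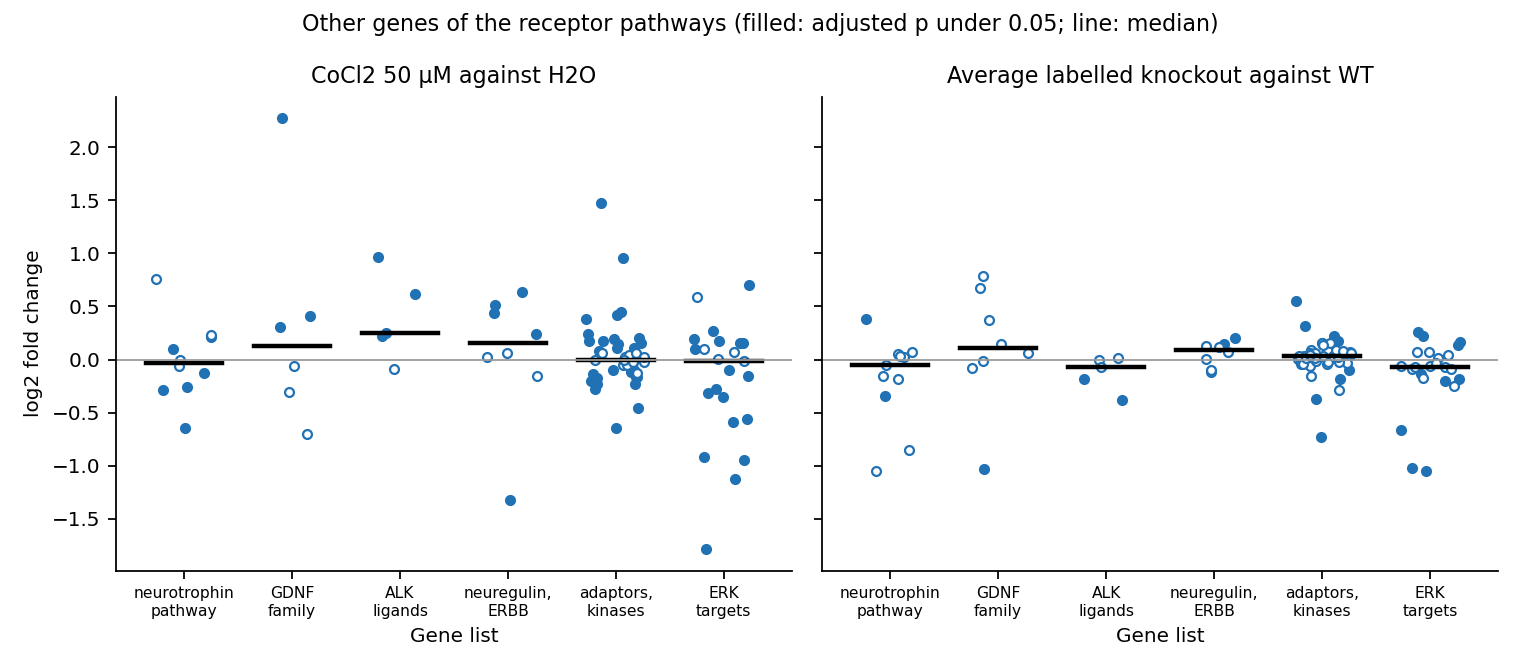
log2 fold changes of the other tested genes of the receptor pathways at 50 µM CoCl2 against H2O (left) and in the average labelled knockout against WT (right), with 1 point per gene, filled where the adjusted p is under 0.05, and a line at each list's median. Points lie on both sides of 0 in all lists, and the medians of the adaptor and ERK target lists are near 0.

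Likeness of pattern was described by the Pearson r of log2 CPM over the 14 libraries, after the mean of each batch was subtracted, among 10123 genes with at least 5 CPM on average in each batch. It is a description, since the libraries share groups, controls and depth. ERBB3 was most like PDGFRB (0.97), the platelet-derived growth factor receptor beta gene, and SYT7 (0.97). PDGFRB averaged 39.3 CPM with H2O and 14.9 CPM with 50 µM, and 42.8 CPM in WT and 13.9 CPM in knockout 2, the groups in which ERBB3 was also highest and lowest within each batch. GFRA2 was most like MORC2 (0.98) and POLR2A (0.98), ALK like NRP1 (0.93) and LIFR (0.92), RET like PIGO (0.93) and PLCG1 (0.93), and NGFR like LPCAT2 (0.93) and AP003071.5 (0.92). GFRA1 was most like DROSHA (0.94) and NDEL1 (0.91), and NTRK3 like PCDHGC4 (0.94) and USP11 (0.91). For NTRK2, whose groups overlapped, the best values were lower, 0.83 with PARP8 and 0.80 with MTIF3.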

How the data were processed

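All 14 libraries are RNA-seq of SK-N-BE2 cells. TRIzol RNA and oligo-dT, strand-specific library kits were used, per the labels' protocols. The authors deposited raw read counts per gene, made per the file headers with featureCounts 1.5.3 (batch 1) and 2.0.5 (batch 2) on protein-coding exons (GENCODE release 33, GRCh38), with no strand option, so genes overlapping on opposite strands were not separated. Per the submitters' processing notes, Trimmomatic 0.36, STAR 2.6.1d and Subread 1.5.3 were used, and that Subread version differs from the batch 2 headers. Of counts from 1 to 10, 39.0% to 42.3% were even in batch 1 and 77.3% to 80.5% in batch 2, whose counts therefore mostly stood for single reads of a pair.

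Each batch was fitted apart by edgeR 4.0.16 in R 4.3.3 (TMM, filterByExpr by group, glmQLFit with legacy = FALSE and robust = TRUE, 1 coefficient per group), over 13636 and 14061 genes, with the dispersion held above 1e-04, below which this release misstates the deviance of abundant genes. The SE of a log2 fold change was that value over the root of its F statistic. The test was tested on simulated data. Alternatives were DESeq2 1.42.0, other normalization, filters and fits, and each library left out. Another 2 settings of the dispersion were added after seeing the data. Log2 CPM for likeness used a pseudocount of 0.1. Promoter sequences are from RefSeq, matched by symbol. The 9 genes and the pathway and marker lists were chosen with earlier results of these data known. Named were all 9 genes, detected ligands and receptors, and in the adaptor and ERK target lists the 3 genes with the smallest adjusted p at 50 µM and the 3 in the average of the labelled knockouts. GFRA3 was not tested in batch 1. Some genes of the lists are not reported here.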

Additional observations from a re-analysis of the deposited data

Results flagged for a closer look

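For 6 receptors the labelled knockouts differed from each other in edgeR's F-test over all genes, where 37.6% of genes did. The highest and lowest log2 fold change against WT lay 1.12 apart for NTRK3 (adjusted p 0.00323), with knockout 2 the highest and knockout 3 the lowest. It was 0.96 for ERBB3 (adjusted p 1.02e-07), with the deepest fall in knockout 2. GFRA2 spanned 0.70 (adjusted p 1.03e-19), from a rise in knockout 2 to a fall in knockout 3. The span was 0.42 for NGFR (adjusted p 4.42e-07), highest in knockout 1, and 0.30 for RET (adjusted p 8.90e-18), from a rise in knockout 1 to a fall in knockout 2. ALK spanned 0.23 (adjusted p 0.0224). The calls of NTRK3 and ALK were lost without knockout 2 replicate 1 (adjusted p 0.266 and 0.150). All spans rest on the same WT libraries and on 2 libraries per knockout.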

How the results depend on the processing

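Of 1166 values of the 9 receptors under the alternatives, 1128 kept their direction and their side of the threshold, 13 lost a call, 9 gained one and 16 changed sign, and those 16 were uncalled in the fits reported. Of the sign changes, all but the pair without TMM given below came with 1 library left out. The log2 fold change of NTRK2 then ranged from -0.0937 (without 10 µM replicate 2) to 0.416 at 10 µM, -0.0598 (without H2O replicate 1) to 0.324 at 50 µM, -0.296 to 0.212 (without 10 µM replicate 2) between doses, -0.151 (without WT replicate 2; -0.142 without knockout 3 replicate 2) to 0.538 in knockout 3, and -0.563 to 0.126 (without WT replicate 1) in the average. ALK ranged from -0.0059 (without H2O replicate 1) to 0.0800 at 10 µM and from -0.0410 (without WT replicate 2) to 0.0532 in knockout 2, ERBB3 from -0.306 to 0.0065 (without 10 µM replicate 1) at 10 µM, GFRA1 from -0.137 to 0.0098 (without knockout 2 replicate 2) in knockout 2, and RET from -0.0209 (without knockout 3 replicate 1) to 0.0407 in knockout 3. GFRA3 ranged from -2.03 (without knockout 1 replicate 2) to 1.25 in knockout 1, -6.18 (without knockout 2 replicate 1) to 1.81 in knockout 2 and -1.44 (without the same library) to 1.22 in the average. Without TMM, RET was at 0.0012 between doses and -0.0086 in knockout 3. The fit of all 14 libraries called 6, 5 and 5 receptors in knockout 1, knockout 3 and the average, against 3 each, and in edgeR 1 coefficient for all knockouts called 0 receptors (2 at an unadjusted p under 0.05) and 256 genes in the average, against 3 and 2656, as the spread between knockouts then counts as error. Genes called at 10 µM numbered 3098, against 1056 with DESeq2, 796 in the fit of all libraries, and 1860 to 3292 with 1 library left out. Between doses they numbered 7198, against 4745 and 4678. With 1 library left out they ranged from 1375 to 2586 in knockout 1 (2462 with all), 2406 to 3766 in knockout 2 (3698), 1566 to 2615 in knockout 3 (2653) and 1587 to 2703 in the average. The cause of these shifts was not tested.

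Replicate numbers did not pair the libraries: deviations of same-numbered libraries correlated at -0.126 to 0.101 across genes. With the replicate number as a block, 4, 6 and 3 receptors were called at 10 µM, 50 µM and between doses, and 3, 4, 3, 3 and 6 in knockouts 1, 2, 3, their average and among them, as without it. Fitting the groups compared alone gave the knockout average no value of its own. At 0 to 52 counts per library for GFRA3, NTRK3 and NTRK2 in batch 1, small changes were not detectable.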
